A study of Mus musculus with 12 samples.

Results

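The genes described here make and remodel the extracellular matrix of the mouse liver or mark the stellate cells that produce much of it. The list held 41 genes, chosen by name, with earlier results of these data known. They were collagens, basement membrane proteins, glycoproteins and proteoglycans, elastic fibre proteins and collagen crosslinking enzymes. Matrix proteases and their inhibitors, the cytokine Tgfb1 and the cytoskeletal genes Vim, Acta2 and Des were also listed. Of these, 39 had a probe set with a gene symbol of its own among the 12393 genes measured in this way. Spp1 and Fbn1 had none and are only named. The group label was checked against separate markers of stellate cells, given below.

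Liver RNA of 12 mice was hybridised to 1 array each, in 4 groups of 3. The groups were wild type mice on a normal diet (WT), wild type mice on a diet with all-trans retinoic acid (RA) at 150 mg/kg for 7 days (WT_RA), and mice deficient in hepatocyte retinoid X receptor alpha (RXRα) that ate the normal diet (KO) or the RA diet (KO_RA). All mice were of the C57BL/6 background, and the study's methods give male sex and 12 weeks of age for the wild type mice. In the KO mice the fourth exon of the RXRα gene, which is flanked by loxP sites and covers the DNA binding domain, was removed by Cre driven by the albumin promoter, which is active in hepatocytes. A truncated protein without that domain is still made, and the other liver cells keep an intact gene. Whole liver was measured, so that fewer cells of a type and less RNA per cell cannot be told apart. The probe set of Rxra gave group means of 10.57, 10.23, 10.54 and 10.84 in WT, WT_RA, KO and KO_RA. Where its probes lie relative to the deleted exon is not known here, so it checks nothing about the deletion.

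Hepatic stellate cells lie between hepatocytes and the sinusoidal endothelium, store most of the body's vitamin A as retinyl ester, and are the main source of fibrillar collagen when the liver is injured. RA acts through receptors that pair with RXR on DNA. Matrix turnover is set by the balance of collagen synthesis, crosslinking, metalloproteinases and their tissue inhibitors, and transforming growth factor β is a major inducer of collagen synthesis. Hepatocytes themselves make plasma fibronectin and collagen XVIII.

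The values are log2 RMA signals of 1 probe set per gene, a change is a difference of group means on the log2 scale, and its error is the standard error (SE) of limma's model with n = 3 arrays per group. A gene was called when limma's adjusted p, taken over all 12393 genes, was under 0.05. Array medians lay between 6.26 and 6.35, and rank correlations within groups between 0.976 and 0.994. On 2 arrays, WT_RA replicate 3 and KO replicate 1, the 3′ control probe set of Actb read 9.40 and 9.12, against 12.1 to 12.9 on the other arrays, so results that rest on them are given with and without both. Of the 39 genes, 36 were never below an array's lower quartile, and Thbs1, Nid2 and Timp1 were below it on 10, 7 and 1 arrays.

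The promoters of 4 genes are printed: those of Timp3, Emilin1 and Mmp14, because these genes rose under RA in KO mice, and that of Col3a1, because its change under RA in KO mice was the largest of the 39 although it was not called. The sequences are from RefSeq on GRCm38.p6, on the plus strand, and run from 250 bases before to 50 bases after the transcription start that the RefSeq promoter table uses. For Emilin1 that start is not the outermost one of the gene, and the window lies inside the annotated gene, which begins at position 30913387. They are Timp3 at chr10:86300162-86300461, Emilin1 at chr5:30913536-30913835, Mmp14 at chr14:54431348-54431647 and Col3a1 at chr1:45311288-45311587. Capitals mark GC boxes (GGGCGG or its complement) in Timp3 and Mmp14, a retinoid receptor hexamer in Emilin1 and TATAAA in Col3a1.
Timp3: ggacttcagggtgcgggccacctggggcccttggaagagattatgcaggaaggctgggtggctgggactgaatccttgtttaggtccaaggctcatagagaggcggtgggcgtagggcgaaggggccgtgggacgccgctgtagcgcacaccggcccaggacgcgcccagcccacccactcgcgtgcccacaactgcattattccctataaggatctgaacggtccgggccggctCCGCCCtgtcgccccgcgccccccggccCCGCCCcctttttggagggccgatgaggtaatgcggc
Emilin1: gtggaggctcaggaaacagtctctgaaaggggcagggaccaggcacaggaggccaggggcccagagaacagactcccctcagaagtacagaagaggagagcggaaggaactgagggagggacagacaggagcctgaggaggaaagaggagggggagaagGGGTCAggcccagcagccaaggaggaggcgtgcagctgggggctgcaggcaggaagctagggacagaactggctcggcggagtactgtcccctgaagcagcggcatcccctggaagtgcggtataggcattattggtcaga
Mmp14: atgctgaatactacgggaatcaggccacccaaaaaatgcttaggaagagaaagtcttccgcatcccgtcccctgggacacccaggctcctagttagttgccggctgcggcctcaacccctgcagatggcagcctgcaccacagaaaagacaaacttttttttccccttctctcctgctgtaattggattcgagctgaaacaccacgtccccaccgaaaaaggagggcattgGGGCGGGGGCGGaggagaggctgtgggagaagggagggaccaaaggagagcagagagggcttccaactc
Col3a1: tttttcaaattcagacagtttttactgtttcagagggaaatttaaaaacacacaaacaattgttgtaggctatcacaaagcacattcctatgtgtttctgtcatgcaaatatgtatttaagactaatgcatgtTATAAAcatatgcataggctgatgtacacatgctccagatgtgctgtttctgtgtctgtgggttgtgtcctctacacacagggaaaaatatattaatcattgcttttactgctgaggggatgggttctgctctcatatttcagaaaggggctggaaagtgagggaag

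Both strands were searched for 4 hexamers bound by retinoid receptors (the consensus AGGTCA, its relative GGGTCA, the variant AGTTCA and the variant GGTTCA), for the GC box GGGCGG, the AP-1 letters TGANTCA and TATAAA. The Emilin1 promoter held 1 receptor hexamer, 91 bases before the start used in the promoter table, and none was found in the windows of Timp3, Mmp14 and Col3a1. Receptor hexamers were present in 43.7% of all 32851 promoters in the table and in 10 of the 31 promoters (32.3%) of the 27 matrix and stellate cell genes that the table holds. The GC box was found in 35.7% of all promoters and in 18 of these 31 (58.1%). A pair of receptor hexamers with 5 bases between them, the spacing preferred by RA receptors, was found in 0.0974% of all promoters and in 0 of the 31. Such matches are a description of letters in these windows and not binding sites.

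The first question was how RA acted on these genes in each genotype. In wild type mice 2 of the 39 genes were called, Timp3 and Emilin1, both higher. That is 5.13% of the genes, against a background of 1.27% of all genes tested (0.871% higher). In KO mice 3 rose, Timp3, Emilin1 and Mmp14, and 1 fell, Col14a1, against a background of 0.5% of all genes (0.274% higher and 0.226% lower). The median change of the 39 genes was 0.04 in wild type mice and −0.15 in KO mice, and the medians of all genes were −0.01 and −0.03. RA moved 19 of the 39 genes in the same direction in both genotypes, which is 48.7%, against 52.2% of all genes.

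**Figure D1:**
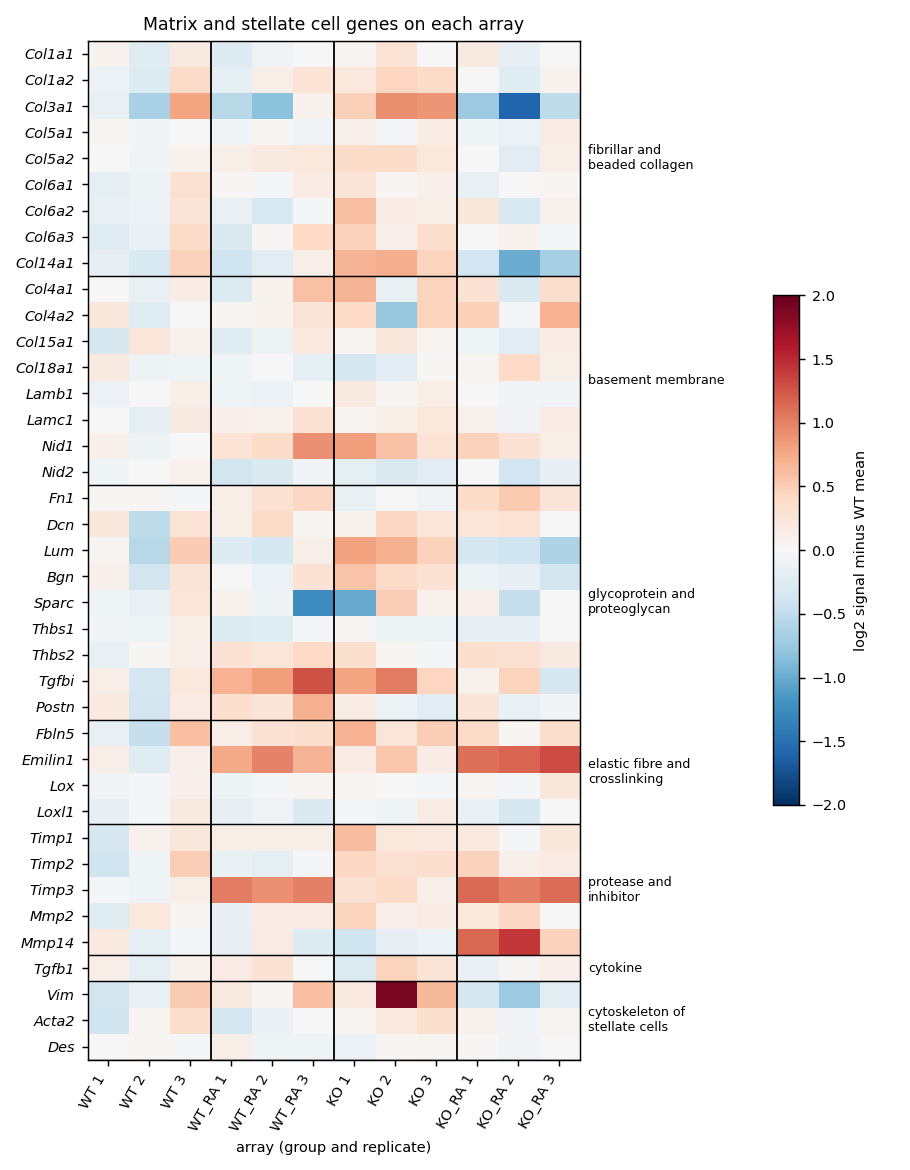
Each cell is the log2 signal of 1 gene on 1 array minus that gene's mean over the 3 WT arrays, with genes in rows grouped by role and arrays in columns. Timp3 and Emilin1 are red in every WT_RA and KO_RA column, Mmp14 is deepest red in the KO_RA columns, and Col3a1 and Col14a1 are red in the KO columns and blue in the KO_RA columns.

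Timp3 encodes the tissue inhibitor of metalloproteinases that binds to the matrix itself. Its signals were 6.81, 6.75 and 6.96 in WT, 7.87, 7.75 and 7.85 in WT_RA, 7.13, 7.22 and 6.95 in KO, and 7.97, 7.85 and 7.96 in KO_RA. Every array of mice on RA was above every array of mice on the normal diet, in both genotypes. RA raised Timp3 by 0.98 ± 0.09 in wild type mice (1.97-fold, limma adjusted p = 0.000419) and by 0.82 ± 0.09 in KO mice (1.77-fold, adjusted p = 0.00547). Both calls held under each alternative tried, with adjusted p up to 0.0132 and 0.0375. The increases differed by −0.16 ± 0.13 (95% interval −0.45 to 0.13, adjusted p = 0.698). All 4 probe sets of Timp3 had positive changes under RA, from 0.08 to 0.98 in wild type mice and from 0.18 to 0.95 in KO mice. Tested on their own over 20380 probe sets, 1 of the 4 was called in wild type mice and 2 in KO mice. The promoter of this gene, printed above, held 2 GC boxes, and on the normal diet Timp3 was 0.26 ± 0.09 higher in KO than in WT mice, which was not called (adjusted p = 0.199).

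Emilin1 encodes a glycoprotein of the elastic fibre. The signals were 6.57, 6.19 and 6.54 in WT and 7.19, 7.43 and 7.11 in WT_RA. In KO they were 6.60, 6.99 and 6.57, and in KO_RA 7.53, 7.60 and 7.74. The RA arrays lay above the normal diet arrays in both genotypes without overlap, and the highest normal diet array was KO replicate 2. RA raised Emilin1 by 0.81 ± 0.14 in wild type mice (1.75-fold, adjusted p = 0.0197) and by 0.90 ± 0.14 in KO mice (1.87-fold, adjusted p = 0.0222). The call in wild type mice was lost without WT replicate 2 (change 0.69, adjusted p = 0.0672), WT replicate 3 (change 0.86, adjusted p = 0.0507) or WT_RA replicate 2 (change 0.72, adjusted p = 0.0732), and that in KO mice without KO replicate 3 (change 0.83, adjusted p = 0.0768) or any 1 of the KO_RA arrays (change 0.84 to 0.95, adjusted p 0.0518 to 0.0732), and in a fit of KO and KO_RA alone (adjusted p = 0.0631). Averaged over the genotypes the rise was 0.86 ± 0.10 (adjusted p = 0.00131) and was called whichever array was left out. The dimmer probe set gave changes of 0.12 ± 0.09 in wild type mice and 0.53 ± 0.09 in KO mice, of which the latter was called on its own (adjusted p = 0.0344).

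Mmp14 encodes a membrane-bound metalloproteinase that activates proMMP2 and cleaves fibrillar collagen. It read 7.08, 6.70 and 6.86 in WT, 6.71, 7.05 and 6.62 in WT_RA, 6.48, 6.71 and 6.76 in KO, and 8.03, 8.30 and 7.34 in KO_RA. All 3 KO_RA arrays were above the 9 others, and the remaining groups overlapped. In KO mice RA raised Mmp14 by 1.24 ± 0.21 (2.37-fold, adjusted p = 0.0278), while in wild type mice the change was −0.09 ± 0.21 (adjusted p = 0.94). The difference between these RA effects was 1.33 ± 0.30 (95% interval 0.68 to 1.97), with an adjusted p of 0.165, so that it was not called, although it was without KO_RA replicate 3 (change 1.60, adjusted p = 0.0415). The call in KO mice was lost without any of KO replicates 1, 2 and 3 or KO_RA replicates 1 and 2 (change 1.04 to 1.30, adjusted p 0.0594 to 0.0941) and without WT_RA replicate 3 and KO replicate 1 together (change 1.16, adjusted p = 0.0561). The dimmer probe set of Mmp14 gave 1.26 ± 0.33 in KO mice and −0.19 ± 0.33 in wild type mice, neither of them called, and with the mean over both probe sets (adjusted p = 0.0624) or a fit of KO and KO_RA alone (adjusted p = 0.112) the call in KO mice was lost.

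The other inhibitors and protease did not follow Timp3 or Mmp14. Timp1, which is induced in activated stellate cells, read 4.65, 5.04 and 5.19 in WT, 5.07, 5.08 and 5.08 in WT_RA, 5.57, 5.17 and 5.16 in KO, and 5.15, 4.92 and 5.20 in KO_RA. Its groups overlapped in each tested comparison of 2 groups, and its changes under RA were 0.12 ± 0.15 in wild type mice and −0.22 ± 0.15 in KO mice. Mmp2, the gelatinase activated by the Mmp14 product, read 5.68, 6.13 and 5.95 in WT, 5.75, 6.07 and 6.08 in WT_RA, 6.37, 6.03 and 6.07 in KO, and 6.13, 6.33 and 5.93 in KO_RA, again overlapping throughout. The brightest probe set of Timp2, another inhibitor, read 6.70, 7.02 and 7.59 in WT, 6.97, 6.91 and 7.06 in WT_RA, 7.52, 7.40 and 7.44 in KO, and 7.57, 7.20 and 7.27 in KO_RA, and its RA changes of −0.13 ± 0.18 and −0.11 ± 0.18 were not called. All 6 probe sets of Timp2 had negative RA changes in both genotypes, but they disagreed in call. Tested singly, 1 of them was lower under RA in wild type mice (−0.55 ± 0.11, adjusted p = 0.0468), another in KO mice (−0.54 ± 0.10, adjusted p = 0.0475), and these same probe sets were lower with the genotypes averaged (−0.39 ± 0.08 and −0.43 ± 0.07).

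**Figure D2:**
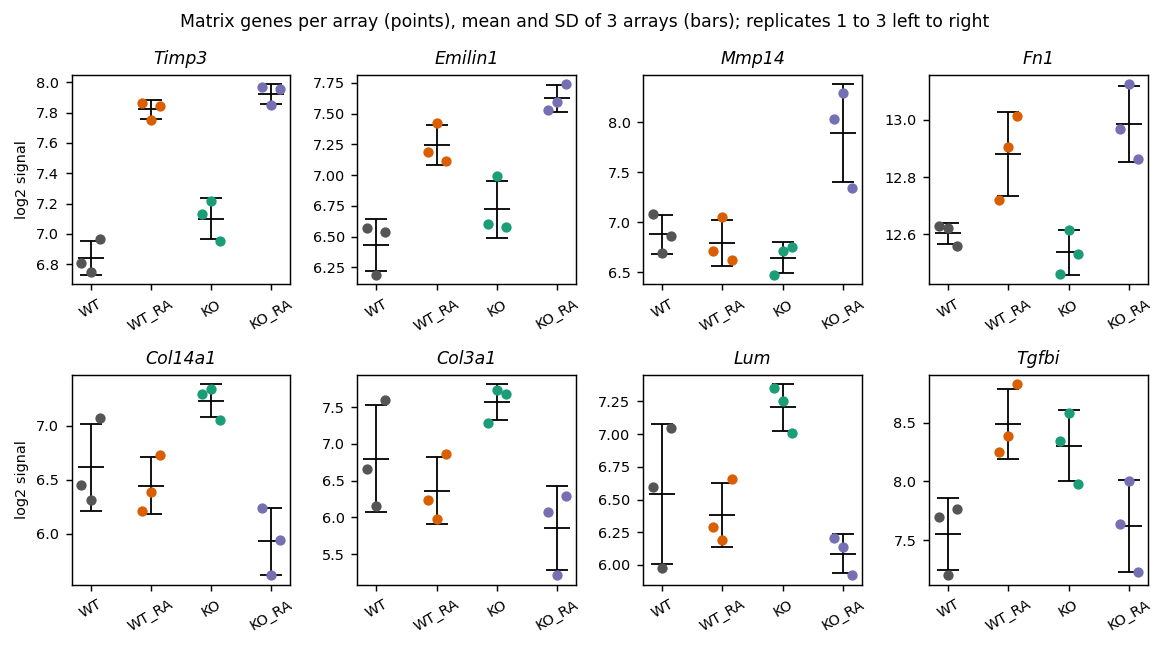
Each panel shows the log2 signal of 1 gene on the 12 arrays (points, replicates 1 to 3 from left to right) with the mean and SD of the 3 arrays of each group (bars), and the y axes do not start at 0. Timp3 and Emilin1 separate by diet in both genotypes, Mmp14 stands higher in KO_RA alone, and Col14a1, Col3a1 and Lum are lowest in KO_RA on average.

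The fibrillar and beaded collagens shared directions in the comparisons with KO mice, but 0 and 1 of 9 passed the test. The changes in KO against WT were positive for all 9, and for 54.9% of all genes, from 0.07 to 0.76 with a median of 0.30, and 0 of them were called by limma (background 1.32%), with 2 at an unadjusted p under 0.05 (background 16.3%). The changes in KO_RA against KO were negative for all 9, with a median of −0.29 (range −1.71 to −0.09). Of these, 1 was called (11.1%), against a background of 0.5% of all genes (0.226% lower). The RA change in KO mice was positive for 43% of all genes. In wild type mice 4 of the 9 had positive and 5 negative RA changes (median −0.03), against 47.3% of all genes positive. The KO arrays enter both comparisons, so the directions of these are not independent of each other.

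Col3a1, which encodes the collagen III chain that accompanies collagen I, had the largest RA change of the 39 genes in KO mice. It read 6.66, 6.15 and 7.59 in WT, 6.24, 5.98 and 6.87 in WT_RA, 7.28, 7.73 and 7.68 in KO, and 6.07, 5.21 and 6.29 in KO_RA. KO and KO_RA did not overlap, whereas the WT arrays spread over most of the range, with WT replicate 3 in the range of KO. The change under RA was −1.71 ± 0.36 in KO mice (3.26-fold lower, adjusted p = 0.0609) and −0.44 ± 0.36 in wild type mice (adjusted p = 0.761). Neither was called, nor was the average of −1.07 ± 0.25 (adjusted p = 0.0514). The other probe set gave −0.22 ± 0.13 in KO mice. Its mean of 3.56 was below the lowest lower quartile of the arrays (4.87), so it can say little about the size. The size of the change rests on 1 probe set. The change in KO mice was called without WT replicate 3 (adjusted p = 0.0415), after further quantile normalization (adjusted p = 0.0498) and with array weights (adjusted p = 0.0259). It was also called with the replicate number as a block (adjusted p = 0.0247). The average was called under 5 other settings, down to an adjusted p of 0.0144 with the block, and without WT replicate 2 (adjusted p = 0.0318) or WT_RA replicate 3 (adjusted p = 0.0404).

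Col14a1 encodes a fibril-associated collagen grouped here with the fibrillar ones. It read 6.46, 6.31 and 7.08 in WT, 6.21, 6.39 and 6.73 in WT_RA, 7.30, 7.34 and 7.06 in KO, and 6.24, 5.62 and 5.94 in KO_RA. All KO arrays exceeded all KO_RA arrays, while WT overlapped with WT_RA and KO. RA lowered Col14a1 by −1.30 ± 0.21 in KO mice (2.46-fold lower, adjusted p = 0.0252) and changed it by −0.17 ± 0.21 in wild type mice (adjusted p = 0.861), and the difference of −1.13 ± 0.30 was not called (adjusted p = 0.223). The call in KO mice was lost without KO replicate 2 or 3 or KO_RA replicate 2 or 3 (change −1.39 to −1.14, adjusted p 0.0559 to 0.0914). The dimmer probe set gave −0.88 ± 0.17 in KO mice (adjusted p = 0.0569). Averaged over the genotypes RA lowered the gene by −0.74 ± 0.15 (adjusted p = 0.0244), a call lost without WT_RA replicate 1 (change −0.68, adjusted p = 0.0539), WT_RA replicate 2 (change −0.72, adjusted p = 0.0686) or KO_RA replicate 2 (change −0.66, adjusted p = 0.0586).

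The collagen I chains, the most abundant matrix proteins of the fibrotic liver, were not called in any comparison. The Col1a1 probe set was dim, with its mean at the 25.4 percentile of all genes. How much of its signal is background was not tested. Col1a1 read 5.44, 5.13 and 5.56 in WT, 5.12, 5.31 and 5.38 in WT_RA, 5.42, 5.65 and 5.38 in KO, and 5.56, 5.21 and 5.36 in KO_RA. Col1a2 read 7.52, 7.37 and 8.01 in WT, 7.45, 7.76 and 7.90 in WT_RA, 7.84, 8.07 and 8.01 in KO, and 7.63, 7.39 and 7.70 in KO_RA. The Col1a1 groups overlapped, with a change of −0.10 ± 0.13 under RA in both genotypes, and Col1a2 separated only KO from KO_RA (−0.40 ± 0.17, adjusted p = 0.315). Col5a2, a minor fibrillar chain, had group means of 6.24, 6.41, 6.56 and 6.21 in WT, WT_RA, KO and KO_RA, and its change under RA of −0.35 ± 0.09 in KO mice was not called (adjusted p = 0.129). Col5a1, Col6a1, Col6a2 and Col6a3 had RA changes between −0.29 and 0.04 in either genotype.

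Among the small proteoglycans that bind collagen fibrils, Lum and Bgn moved like Col14a1 without being called. Lum had means of 6.54 ± 0.53 in WT, 6.38 ± 0.25 in WT_RA, 7.20 ± 0.18 in KO and 6.09 ± 0.15 in KO_RA (SD, n = 3), with a change in KO mice of −1.12 ± 0.22 just outside the threshold (adjusted p = 0.0506). For Bgn the means were 8.49, 8.55, 8.91 and 8.28, and the change was −0.63 ± 0.16 in KO mice (adjusted p = 0.101). Dcn, which encodes decorin, had changes of 0.17 ± 0.19 and −0.07 ± 0.19 under RA, with means between 9.95 and 10.19.

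Fn1 encodes fibronectin, and its mean signal stood at the 99.4 percentile of all genes. It read 12.63, 12.62 and 12.56 in WT, 12.72, 12.91 and 13.01 in WT_RA, 12.46, 12.62 and 12.53 in KO, and 12.97, 13.12 and 12.86 in KO_RA. Arrays of mice on RA were above those on the normal diet in both genotypes. The changes of 0.28 ± 0.10 in wild type mice (adjusted p = 0.247) and 0.45 ± 0.10 in KO mice (adjusted p = 0.0669) were not called, but their average of 0.36 ± 0.07 was (1.28-fold, adjusted p = 0.0175). The averaged call was lost without WT_RA replicate 2 (change 0.36, adjusted p = 0.0532), without WT_RA replicate 3 and KO replicate 1 together (change 0.31, adjusted p = 0.0645), and with the mean over both probe sets (change 0.67, adjusted p = 0.317).

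With the genotypes averaged, 4 of the 39 genes were called for RA, Timp3, Emilin1 and Fn1 higher and Col14a1 lower, against a background of 2.34%.

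Tgfbi encodes a secreted adhesion protein induced by transforming growth factor β, and its RA changes had opposite signs in the 2 genotypes. It read 7.69, 7.20 and 7.77 in WT, 8.25, 8.39 and 8.83 in WT_RA, 8.35, 8.58 and 7.98 in KO, and 7.64, 8.01 and 7.23 in KO_RA. WT_RA and KO both lay above WT without overlap, and KO_RA lay below WT_RA. The RA change was 0.93 ± 0.23 in wild type mice (adjusted p = 0.0783) and −0.68 ± 0.23 in KO mice (adjusted p = 0.22). The difference between them, −1.61 ± 0.32 (95% interval −2.31 to −0.91), was not called (adjusted p = 0.123), but was with array weights (adjusted p = 0.0219). All 4 probe sets had positive changes in wild type mice and negative changes in KO mice. The Tgfb1 gene itself read 6.48, 6.16 and 6.42 in WT, 6.51, 6.64 and 6.34 in WT_RA, 6.08, 6.80 and 6.61 in KO, and 6.22, 6.38 and 6.45 in KO_RA, with overlapping groups.

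**Figure D3:**
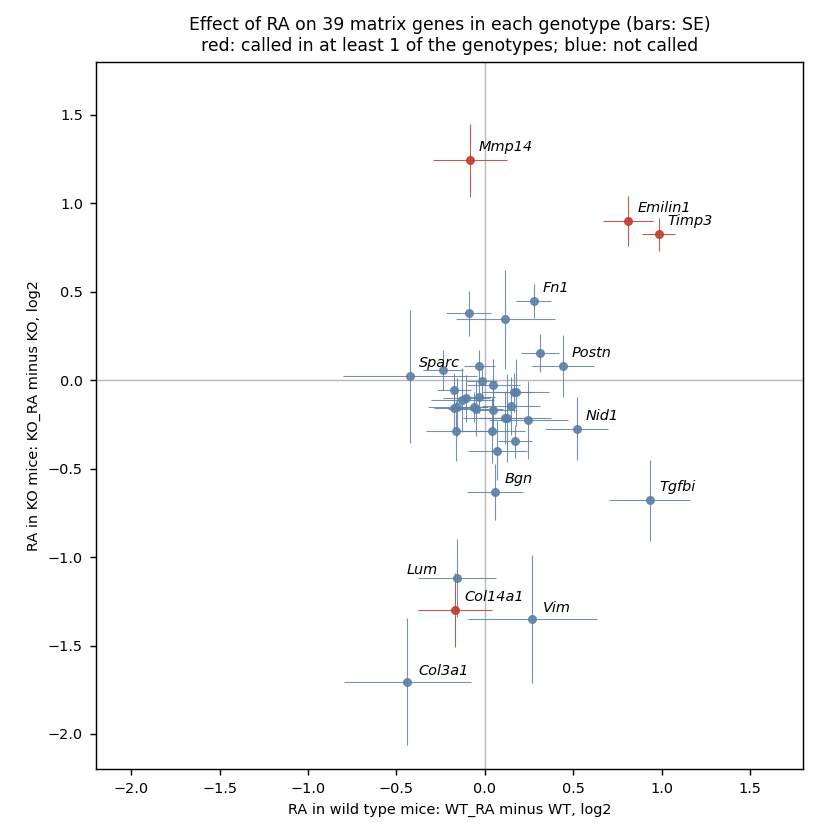
Each point is 1 of the 39 genes, with the RA change in wild type mice on the x axis and in KO mice on the y axis, both in log2, and bars give the SE. Timp3 and Emilin1 lie at the upper right, Mmp14 lies near 0 in wild type mice and at 1.24 in KO mice, and Col3a1, Col14a1, Lum and Vim lie below −1 in KO mice.

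The remaining glycoproteins were not called in any comparison. Thbs1, Thbs2 and Postn, which encode thrombospondins and periostin, had RA changes of −0.17 ± 0.10, 0.31 ± 0.11 and 0.44 ± 0.18 in wild type mice and of −0.06 ± 0.10, 0.15 ± 0.11 and 0.08 ± 0.18 in KO mice. Sparc, a collagen-binding glycoprotein, was low on just the arrays with the weak Actb control, at 7.75 on WT_RA replicate 3 and 7.98 on KO replicate 1, against 8.53 to 9.48 on the others. Without those arrays its change under RA in wild type mice went from −0.43 to −0.02 and its RA change in KO mice from 0.02 to −0.41.

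Of the basement membrane genes, 0 of 8 were called in any of the 7 comparisons by limma, with at most 2 at an unadjusted p under 0.05 in a comparison, against backgrounds of 0.00807% to 5.34% called. Col4a1, a chain of the sheet-forming collagen IV, read 7.95, 7.80 and 8.09 in WT, 7.67, 8.01 and 8.53 in WT_RA, 8.63, 7.81 and 8.40 in KO, and 8.24, 7.66 and 8.30 in KO_RA, with overlap between all groups. Its partner Col4a2 had RA changes of 0.12 ± 0.28 and 0.34 ± 0.28. Nid1, which links laminin to collagen IV, had means of 6.28 in WT, 6.80 in WT_RA, 6.85 in KO and 6.58 in KO_RA, and both WT_RA (0.52 ± 0.18, adjusted p = 0.227) and KO (0.57 ± 0.18, adjusted p = 0.154) were above WT without overlap. Without WT_RA replicate 3 and KO replicate 1, these changes were 0.32 ± 0.13 (adjusted p = 0.397) and 0.43 ± 0.13 (adjusted p = 0.136). Col18a1, whose product is made by hepatocytes, had means of 11.74, 11.65, 11.56 and 11.94. Col15a1, Lamb1, Lamc1 and Nid2 had changes between −0.24 and 0.16 under RA. Of the elastic fibre and crosslinking genes other than Emilin1, Fbln5, Lox and Loxl1 had RA changes between −0.22 and 0.25, none of them called.

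**Figure D4:**
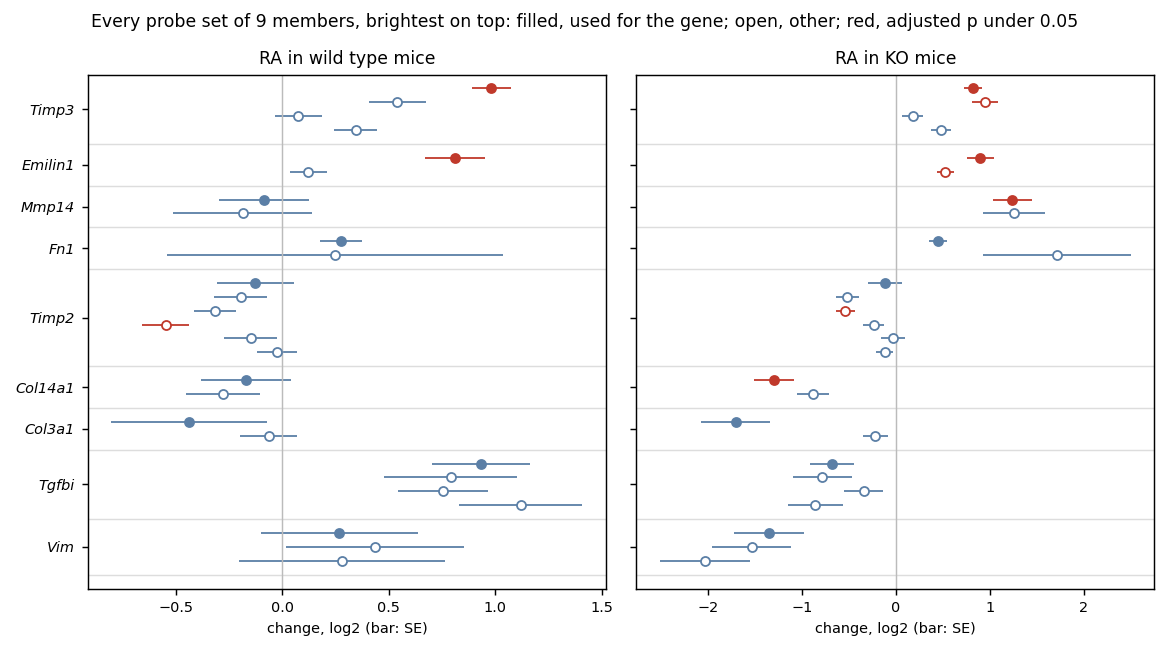
Every probe set of 9 genes is shown with its RA change (log2, bar: SE) in wild type mice on the left and KO mice on the right. Filled points are the probe sets used for the gene, open points are its other probe sets, and red points had an adjusted p under 0.05 in their own fit. The probe sets of Tgfbi agree in direction, while those of Timp3, Emilin1 and Col3a1 also agree in direction but differ in size. The open Col3a1 point is a probe set with a mean of 3.56, below the lower quartile of the arrays.

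RXRα deficiency was the other question. On the normal diet 0 of the 39 genes were called by limma, against a background of 1.32%, and 9 had an unadjusted p under 0.05, all higher in KO mice, against 16.3% of all genes. The change was positive for 31 of 39 genes (79.5%), against 54.9% of all genes, and its median was 0.18, against 0.02 over all genes. Several other gene lists shared this tilt. Positive changes made up 76.2% of 42 further matrix genes, 81.5% of 27 other proteases and inhibitors and 89.5% of 19 stellate cell markers. Of 17 endothelial markers 76.5% were positive. All of the 14 Kupffer cell and macrophage markers and all of the 9 neutrophil markers had positive changes. So did 91.7% of 12 myofibroblast and smooth muscle markers and 81.8% of 11 T, B and NK cell markers. For 12 portal fibroblast and mesothelial markers it was 75%. Genes of the transforming growth factor β pathway (23) and matrix receptors (19) had 69.6% and 63.2%. The share was 57.9% for 19 genes of collagen folding and processing, 44.4% for 9 cholangiocyte markers and 41.7% for 12 hepatocyte markers. With array weights estimated by limma, 16 of the 39 were called, all higher, and 1734 genes in all, in a fit that gave WT replicate 2 a weight of 7.12 and KO replicate 1 a weight of 0.32. KO had the highest mean of the 4 groups for 23 of the 39 genes, against 34% of all genes. On the RA diet 1 of 39 genes was called, Mmp14, at 1.10 ± 0.21 higher in KO_RA than in WT_RA (2.14-fold, adjusted p = 0.0147), against a background of 3.95%. That call was lost without WT_RA replicate 1 (change 1.06, adjusted p = 0.051), WT_RA replicate 3 (change 1.01, adjusted p = 0.0589) or KO_RA replicate 1 (change 1.02, adjusted p = 0.0691), and without WT_RA replicate 3 and KO replicate 1 together (change 1.01, adjusted p = 0.0547). Averaged over the diets 0 were called by limma, with 4 at an unadjusted p under 0.05, against backgrounds of 5.34% and 22.1%.

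The interaction of RA with genotype, which is the RA change in KO mice minus that in wild type mice, was called by limma for 0 of the 39 genes and for 0.00807% of all genes. At an unadjusted p under 0.05 there were 10, of which 8 had a lower RA effect in KO mice, against 11.7% of all genes. Groups that did not overlap were found for 8 of 39 genes in the RA comparison of wild type mice, all higher (background 16.6%, 8.77% higher), and for 14 of 39 in KO mice, 5 higher and 9 lower (background 20.9%, 8.58% higher and 12.3% lower). RXRα deficiency separated 6 of 39 genes on the normal diet (background 20.1%) and 8 of 39 on RA (background 25.6%). As shares of the 39 genes these were 20.5%, 35.9%, 15.4% and 20.5%.

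Vim, Acta2 and Des encode cytoskeletal proteins of stellate cells and myofibroblasts. Vim read 6.08, 6.32 and 6.96 in WT, 6.63, 6.48 and 7.05 in WT_RA, 6.65, 8.36 and 7.11 in KO, and 6.12, 5.72 and 6.23 in KO_RA. KO replicate 2 was far above the other arrays, and KO and KO_RA did not overlap. The change was −1.35 ± 0.36 under RA in KO mice (adjusted p = 0.125) and 0.92 ± 0.36 in KO against WT (adjusted p = 0.246), both uncalled. The change under RA in KO mice was called with array weights (−1.30, adjusted p = 0.0405) and, just inside the threshold, without WT_RA replicate 3 and KO replicate 1 (−1.71, adjusted p = 0.04998). Without KO replicate 2 the changes were −0.86 (adjusted p = 0.191) and 0.42 (adjusted p = 0.449). Acta2, the smooth muscle actin of activated stellate cells, read 5.96, 6.41 and 6.70 in WT, 6.01, 6.23 and 6.37 in WT_RA, 6.39, 6.54 and 6.68 in KO, and 6.42, 6.31 and 6.42 in KO_RA. Des, the desmin gene, lay between 6.06 and 6.30 on all 12 arrays, at 6.17, 6.22 and 6.15 in WT, 6.30, 6.09 and 6.09 in WT_RA, 6.06, 6.22 and 6.24 in KO, and 6.20, 6.11 and 6.19 in KO_RA. The groups of Acta2 and Des overlapped in each tested comparison of 2 groups.

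Some arrays were the highest or lowest of their group for many of these genes. WT replicate 3 had the highest value of its group for 27 of 39 genes and WT replicate 2 the lowest for 23. WT_RA replicate 3 was highest for 28 and KO_RA replicate 2 lowest for 24. The same counts were not taken over all genes, so whether this order is particular to the 39 genes was not tested. The median change of the 39 genes under RA in wild type mice turned negative without WT replicate 1, WT replicate 2 or WT_RA replicate 3 (range −0.03 to 0.12 over the arrays left out), and without both WT_RA replicate 3 and KO replicate 1 it was −0.02. The medians for RXRα deficiency on the normal diet (0.14 to 0.28) and for RA in KO mice (−0.17 to −0.08) kept their sign whichever array was left out.

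Markers of other liver cells moved with some of these results. Of the 14 measured Kupffer cell and macrophage markers, all had positive changes in WT_RA against WT (median 1.03), and 2 were called (background 1.27%). All had positive changes in KO against WT (median 1.22), with 0 called by limma and 14 at an unadjusted p under 0.05 (background 16.3%). In KO_RA against KO, 13 changes were negative (median −0.53), with 0 called and 2 at an unadjusted p under 0.05 (background 14%). Of all genes, 47.3%, 54.9% and 43% had positive changes in these 3 comparisons. Their summed log2 signals ranged from 96.0 to 98.6 in WT, 105.7 to 116.5 in WT_RA, 101.2 to 126.7 in KO and 105.6 to 107.6 in KO_RA, highest on KO replicate 2, the array with the highest Vim. The median deviation of these markers was −0.38, 1.53 and 0.43 on the 3 KO arrays, whereas that of the fibrillar and beaded collagens was 0.26, 0.25 and 0.15. Among 17 endothelial markers, 3 were called under RA in KO mice against a background of 0.5%, Tek, Gpr182 and Fcgr2b, which fell (−0.99 ± 0.15, −0.90 ± 0.12 and −0.46 ± 0.09). Of the 17 changes, 6 were positive (35.3%, against 43% of all genes). In KO against WT, Tek, Gpr182 and Fcgr2b were 0.54, 0.41 and 0.34 higher, none of them called. There 8 of the 17 were higher at an unadjusted p under 0.05 (background 16.3%). The KO arrays enter both comparisons. For RA averaged over the genotypes 4 of the 17 were called (23.5%, background 2.34%). Tek, Gpr182 and Fcgr2b were lower there, and Vwf was higher (0.72 ± 0.13, adjusted p = 0.0126). The part of macrophages or endothelium in the values of Vim, Tgfbi and the collagens was not tested.

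The labelled gene group was set against 19 measured stellate cell markers. The median deviation of these markers from their 12-array means was −0.24 to 0.00 in WT, −0.08 to 0.06 in WT_RA, −0.06 to 0.17 in KO and −0.01 to 0.10 in KO_RA, so that the ranges overlapped. Of the 19, 17 had positive changes in KO against WT (89.5%, median 0.15), against 54.9% of all genes. By limma 0 were called there, and 4 were higher at an unadjusted p under 0.05 (background 16.3%). Under RA 1 was called in wild type mice (5.26%, background 1.27%), 0 in KO mice (background 0.5%) and 3 in the average over the genotypes (15.8%, background 2.34%). Of the defining markers, Reln, which encodes the secreted protein reelin, was bright, with means of 8.63, 8.74, 9.01 and 8.21 in WT, WT_RA, KO and KO_RA. Its change under RA in KO mice, −0.80 ± 0.25, was not called (adjusted p = 0.179). Lrat, the enzyme that esterifies retinol for storage, was dim, at the 7.5 percentile of all genes, with means of 3.94, 4.27, 4.03 and 4.42, and rose under RA averaged over the genotypes (0.36 ± 0.07, adjusted p = 0.0129). Steap4, a metalloreductase, rose as well in wild type mice (1.50 ± 0.29, adjusted p = 0.0296), and Angptl6 fell in the average (−0.40 ± 0.08, adjusted p = 0.0165). Pdgfrb and Hgf had RA changes between −0.01 and 0.10. The list of 12 myofibroblast and smooth muscle markers had 1 call under RA in wild type mice (8.33%, background 1.27%), Mylk, which was higher (0.44 ± 0.09, adjusted p = 0.0407).

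**Figure D5:**
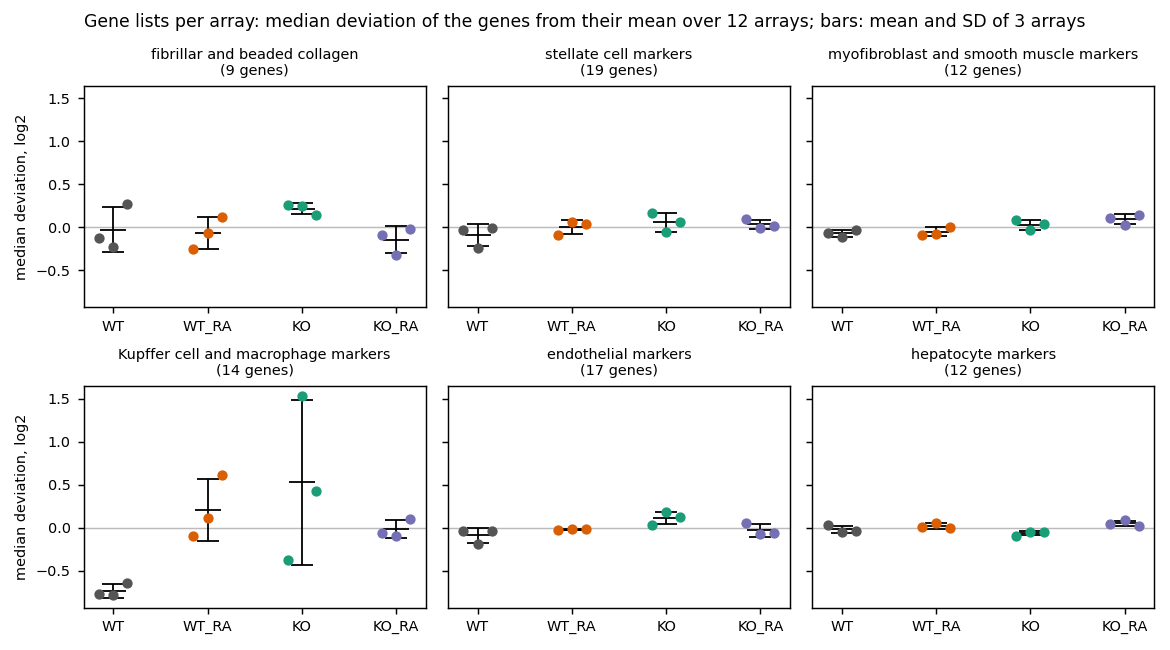
Each panel gives, for 1 gene list, the median over its genes of the deviation from the 12-array mean (log2) on each array (points), with the mean and SD of 3 arrays (bars). The collagens stand above 0 on all 3 KO arrays, the macrophage markers are lowest in WT and highest on KO replicate 2, and the stellate cell markers stay between −0.24 and 0.17.

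Other genes of the matrix pathways were taken from lists that were likewise named with earlier results of these data known. Of 23 genes of the transforming growth factor β pathway, 1 was called under RA in wild type mice (4.35%, background 1.27%), Skil, a repressor of SMAD signalling, which rose by 1.56 ± 0.27 (adjusted p = 0.0203), and 0 of the 23 were called in KO mice by limma, with 5 at an unadjusted p under 0.05 (background 14%). Of 42 further matrix genes, 2 were called under RA in wild type mice (4.76%, background 1.27%). Prelp, a small leucine-rich proteoglycan gene, rose (0.94 ± 0.19, adjusted p = 0.0318) and Lama3, a laminin chain gene, fell (−0.79 ± 0.16, adjusted p = 0.0369). Of 19 matrix receptor genes, Dag1 fell in KO against WT (−0.44 ± 0.09, adjusted p = 0.0451) and Itga6 in KO_RA against WT_RA (−0.61 ± 0.13, adjusted p = 0.0272), encoding dystroglycan and an integrin that bind laminin. Each was the only 1 of the 19 called in its comparison (5.26%), against backgrounds of 1.32% and 3.95%. Of 19 genes for collagen folding and processing, 1 was called for RXRα deficiency averaged over the diets (5.26%), near the background of 5.34%. It was Plod1, a lysyl hydroxylase gene, which was lower in the KO mice (−0.52 ± 0.11, adjusted p = 0.0198). None of 27 other proteases and inhibitors was called by limma in any of the 7 comparisons, with 3 to 4 at an unadjusted p under 0.05 in each, against backgrounds of 11.7% to 22.1%.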

How the data were processed

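The authors deposited 1 log2 value per probe set and array of an Affymetrix mouse genome array. The submitters' processing notes name RMA and Partek 6.11, while the study's methods name MAS5 with a detection filter. The deposited range and array medians fit log2 RMA. No genome build was needed for the values. The titles gave the group and the number of each biological replicate.

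Of 22690 probe sets, 64 were controls, and 20380 had a single symbol in the platform annotation, 691 several and 1555 none. The brightest of a gene's probe sets, by its mean over all 12 arrays, stood for that gene, without a filter on dim probe sets. RMA on quantile-normalized arrays makes levels relative within an array, so a shift of all genes would not be seen. Group means were estimated from all 12 arrays by limma 3.58.1 under R 4.3.3 (lmFit and eBayes, two-sided, 8 residual degrees of freedom), with 7 contrasts and Benjamini-Hochberg adjustment over all 12393 genes in each. The study names no model. The script was tested on simulated data. For arrays, their number limits the precision.

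The 41 genes, the other lists and the tests were chosen with earlier results of these data known. Values on all 12 arrays are given for genes called in any contrast, for the 3 largest changes of each contrast and for 12 genes listed by name, Col1a1, Col1a2, Col3a1, Col4a1, Fn1, Spp1, Timp1, Mmp2, Tgfb1, Acta2, Des and Vim, except Spp1, which was not measured. Other genes are given by means, ranges and counts. In other lists up to 4 called genes, and a few stellate cell markers, could be named. Promoters are from RefSeq. Figures were drawn with matplotlib 3.10.9. The alternatives were a replicate block, further normalization, a dim filter, another variance prior, array weights, means over probe sets, fits of single comparisons and left-out arrays, and, chosen after seeing the data, a fit of each probe set.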

Additional observations from a re-analysis of the deposited data

How the results depend on the processing

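The number of the 39 genes called was recomputed under each alternative. With array weights it was 7 for RA in wild type mice, 16 for RXRα deficiency on the normal diet, 8 for RA in KO mice, 2 for RXRα deficiency under RA, 2 for the genotype difference of the RA effect, 8 for RA averaged and 5 for RXRα deficiency averaged. The weights ran from 0.32 (KO replicate 1) to 7.12 (WT replicate 2), so that fit leaned on 1 array. For RXRα deficiency under RA the count was 2 with only genes at or above the median mean, 2 with means over probe sets, 2 with each probe set on its own (chosen after seeing the data) and 0 without WT_RA replicate 3 and KO replicate 1. For RXRα deficiency averaged it was 2 with means over probe sets and 1 with each probe set on its own. Leaving out 1 array gave 1 to 2 for RA in wild type mice, 0 to 0 for RXRα deficiency on the normal diet, 1 to 6 for RA in KO mice, 0 to 2 for RXRα deficiency under RA, 0 to 1 for the genotype difference, 2 to 6 for RA averaged and 0 to 1 for RXRα deficiency averaged. The counts over all 12393 genes shifted too. With all arrays they were 158, 163, 62, 490, 1, 290 and 662, in the same order. Without 1 array they were 47 to 212, 51 to 217, 6 to 77, 170 to 599, 1 to 14, 151 to 288 and 403 to 767. The cause of these shifts was not tested.

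With the replicate number as a block the counts were 2, 0, 5, 1, 0, 5 and 0, in the same order, with Col3a1 added in KO mice (adjusted p = 0.0247) and in the average (0.0144). The titles do not say what arrays of the same number share, and a shared batch was not tested. Deviations of arrays with the same number correlated between −0.46 and 0.27. For 1 of 12 arrays the closest array of another group had its own number. Of 509 recomputed changes of single genes, 451 kept their side of the threshold, 30 lost the call, 28 gained it and 0 reversed. There were 3 arrays a group, and probe sets near background were not separated from the rest. How much of the signal of dim genes such as Timp1, Thbs1 and Nid2 is background was not tested, and the SE of their changes does not measure it.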
